A study of Solanum lycopersicum with 9 samples.

Results

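The last step of tomato ripening on these arrays is the passage from the pink (PK) to the red ripe (RR) stage, and it was read as the difference between the 3 arrays labelled red ripe and the 2 arrays labelled pink, 5 of the 9 arrays of the series. All fruit were wild type (WT) of the cultivar Ailsa Craig, with no treatment, grown hydroponically in an open greenhouse and assigned to a stage by the colour of the skin. The other 4 arrays, 2 at breaker (BR) and 2 at turning (TU), entered the fit and are given here only as levels. RNA was hybridised to Affymetrix TomGene ST 1.1 strips, on which a group of probes, a probe set, reads 1 transcript cluster. Of 67795 probe sets, the 23194 that carry 1 gene symbol stand for the 21326 genes described here, each read by its brightest probe set. Of these genes 897 have a name and 20429 only a LOC number. The labels name pericarp, the flesh of the fruit wall, whereas the methods speak of fruit tissue and in 1 sentence of abscission zones, and they describe the replicates of a stage as independent and biological but give fewer of them for red ripe than there are arrays. The labels tie no array to a plant, so the spread behind each p-value is that between arrays, and whether 2 of the red ripe arrays share a fruit sample is not stated.

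Tomato is a climacteric fruit, whose ripening is driven by a burst of the gaseous hormone ethylene and by transcription factors such as RIN and NOR. While the fruit turns from green to red, chloroplasts become chromoplasts, lycopene accumulates, enzymes loosen the cell wall and sugars and aroma compounds build up. Pink fruit is still colouring. Red ripe fruit is fully coloured and continues to soften.

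The pink arrays had a narrower range of signal than the red ripe arrays, which touches every count given here. On the red ripe arrays 1 gene in 10 exceeded a log2 signal of 6.73 to 6.86, against 6.07 to 6.19 on the pink arrays. The share of genes over 5 on the log2 scale was 27% to 29.6% at red ripe and 18% to 19.1% at pink. Breaker resembled red ripe in this respect, with 25.5% and 26.2%, and turning resembled pink, with 15.8% and 18.6%. The red ripe arrays correlated with one another across genes with r = 0.983 to 0.991 and the pink arrays with r = 0.957. The part that this difference in range plays in the rises was not tested, and a stage and the range of its arrays cannot be told apart. In bulk tissue, fewer cells of a type and less RNA per cell cannot be told apart either.

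**Figure D1:**
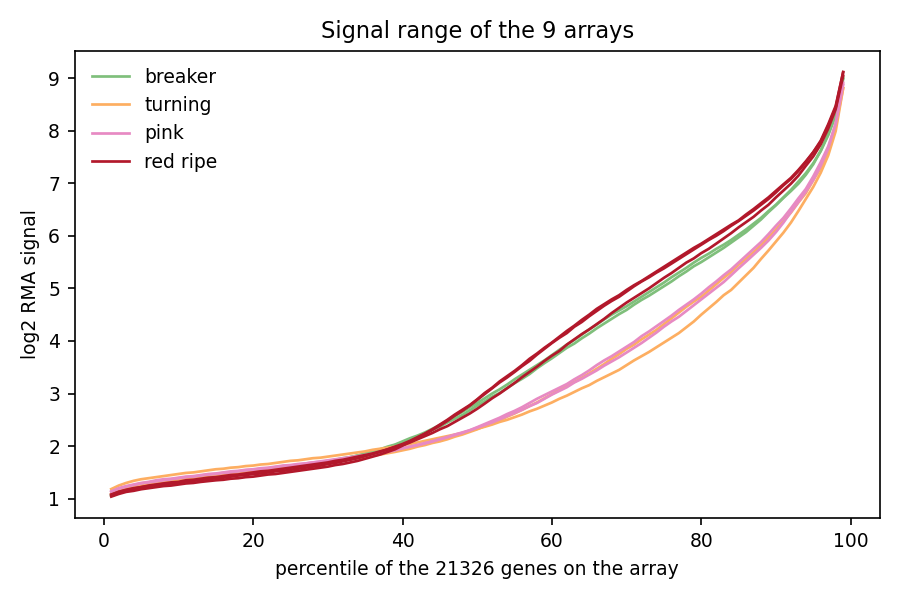
Log2 RMA signal (vertical axis) at each percentile of the 21326 genes (horizontal axis), 1 line per array, coloured by stage. The 3 red ripe lines lie above the 2 pink lines over the upper part of the range, and at the 90th percentile they reach 6.73 to 6.86 against 6.07 to 6.19.

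The ripening markers of fruit were not all bright. PG2 (fruit polygalacturonase), Psy1 (fruit phytoene synthase) and NAC-NOR (the NOR regulator) had mean log2 signals of 11.33, 10.16 and 10.47 at red ripe and 10.77, 9.27 and 10.78 at pink, close to the top of the scale. ACO1, an ACC oxidase well known from ripening fruit, stood at 1.71 and 1.67, in the range where signal cannot be told from background, and the expansin EXP1 rose to 4.97 from 1.35. The pollen receptor kinases PRK1, PRK2 and PRK3 and the seed regulator ABI3 lay between 1.24 and 1.87 at both stages. Of 4 abscission zone genes, TAPG2, TAPG4 and cel5 lay between 1.14 and 1.96, and the cellulase Cel1 stood at 5.64 at red ripe and 5.92 at pink, with neither direction called. Small subunits of Rubisco, RBCS-1 and RBCS-2A, were at 1.23 to 2.09.

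Rises far outnumbered falls. A gene was called higher or lower at an adjusted p under 0.05 (limma, adjusted over all probe sets) together with a fold change over 2. By this rule 4131 of 21326 genes were higher at red ripe (19.4%) and 353 were lower (1.66%), so that 92.1% of the called genes were higher. Over all 67795 probe sets 5279 were higher (7.79%) and 894 lower (1.32%). In each of the 4131 genes the 3 red ripe arrays lay above both pink arrays, and in each of the 353 below both. The calls were made on these same arrays, so this separation goes with the call and is no further support. The same applies to the called genes named below. The median log2 difference was 1.59 over the genes that rose and -1.53 over those that fell, against 0.11 over all genes and -0.10 over all probe sets. When the arrays were first brought to one distribution by quantile normalization, the called genes numbered 2119 higher and 838 lower, and the share of higher ones was 71.7%. It was 73.8% after cyclic loess normalization (2253 higher and 798 lower) and 94.5% after centring each array on its median.

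The levels of the called genes also differed between the stages outside the comparison. Over the genes called higher the median of the stage means was 3.62 at pink and 5.51 at red ripe, and over those called lower 6.33 at pink and 4.51 at red ripe. The genes called higher had medians of 5.01 at breaker and 3.56 at turning, and those called lower 5.48 and 5.79. Breaker was thus nearer to red ripe in the former, whereas the latter stood above red ripe at all 3 other stages. The nearness of breaker to red ripe was not particular to the genes called higher. Over all 21326 genes breaker and red ripe had medians of 2.79 and 2.83, and turning and pink 2.31 and 2.35. The range of the arrays was split in the same way. Genes not called differed little, with 2.09 and 2.01 for the former pair and 1.99 and 1.98 for the latter. Changes over 8-fold were measured in 307 rises and 28 falls, and over 32-fold in 31 and 7. Signal near the bottom of the scale has no detection call, and a stage mean under 2.5 is called low here, so that a fold from or to it is at best a lower bound. This concerned 817 of the rises (19.8%), low at pink, and 79 of the falls (22.4%), low at red ripe.

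**Figure D2:**
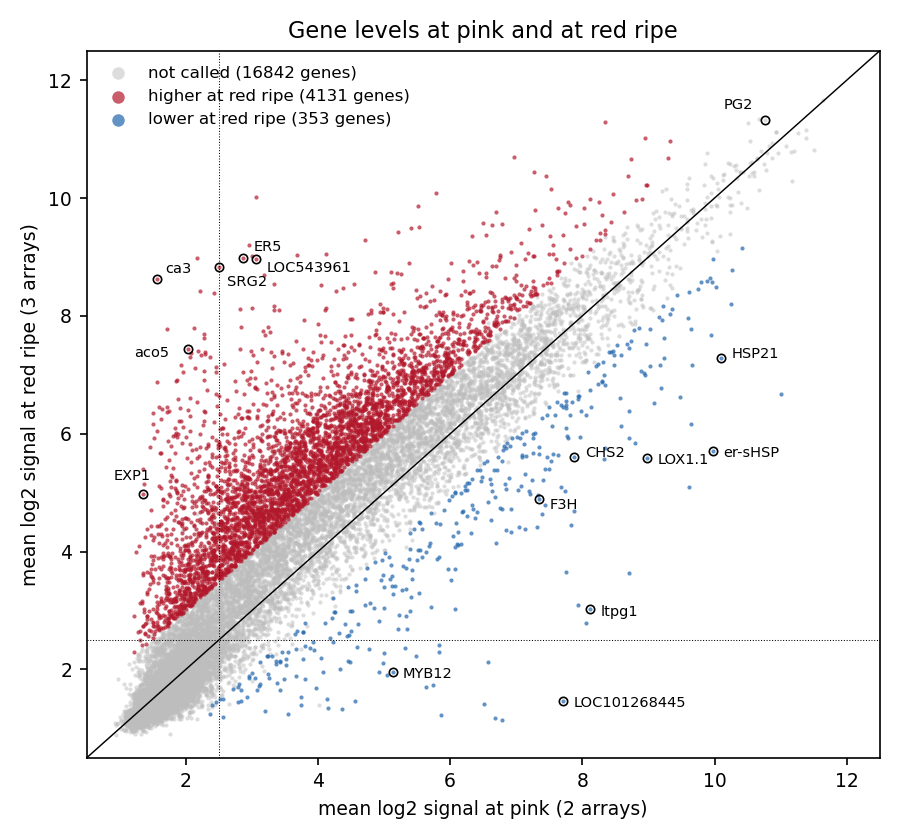
Mean log2 signal at pink (horizontal axis, 2 arrays) against red ripe (vertical axis, 3 arrays), 1 point per gene, red for the 4131 higher, blue for the 353 lower and grey for the others, with the line of equal level, dotted lines at the low signal limit of 2.5 and 15 genes of the text circled. The red points reach the left edge, where ca3 stands at 1.56 and 8.63, and the blue points lie mostly on the right, where HSP21 stands at 10.10 and 7.28.

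The largest rise was that of ca3, a carbonic anhydrase, the enzyme that interconverts carbon dioxide and bicarbonate. Its log2 signals were 8.70, 8.70 and 8.49 on the red ripe arrays and 1.68 and 1.44 on the pink arrays. It was also at 1.48 at breaker and 2.02 at turning, so that only the red ripe arrays were bright. The log2 difference was 7.07 ± 0.16 (standard error; adjusted p = 8.85e-07), a fold of 134 that is at best a lower bound. Its relatives ca1 and ca2 were not called, with log2 differences of 0.05 and -0.29.

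Among the next largest rises, the sucrose synthase LOC543961, which cleaves sucrose for use in the cell, had log2 signals of 9.03, 8.99 and 8.86 at red ripe and 2.92 and 3.20 at pink, a log2 difference of 5.90 ± 0.18 (adjusted p = 1.54e-06). The ethylene-responsive gene ER5, of the late embryogenesis abundant type, had 8.89, 8.99 and 9.08 against 2.75 and 2.98, a log2 difference of 6.12 ± 0.32 (adjusted p = 1.14e-05). For both, the gap between the stages was many times the spread within them. LOC101265470, described as similar to beta-glucosidase 40, rose by 6.81 ± 0.28 (adjusted p = 4.33e-06), and LOC101261650, similar to a glucan endo-1,3-beta-glucosidase, an enzyme that cuts callose and fungal cell walls, by 5.67 ± 0.24 (adjusted p = 4.87e-06). Both were low at pink, with means of 2.17 and 2.13. SRG2 rose by 6.32 ± 0.43 (adjusted p = 3.63e-05). Of the 15 largest rises 7 were LOC genes without a description at hand, led by LOC101253915, which stood at 10.02 at red ripe and 3.06 at pink, and LOC101265659, at 8.42 and 2.21.

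LOC101245043, annotated as an agglutinin isolectin, a carbohydrate-binding protein, differed in its course. It had log2 signals of 9.38, 8.91 and 9.32 at red ripe and 3.24 and 2.68 at pink, while the breaker and turning means were 10.56 and 10.34. It was bright on 7 arrays and dim on both pink arrays, with a log2 difference of 6.24 ± 0.21 between red ripe and pink (adjusted p = 1.86e-06).

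The genes with a name, taken apart after their values had been seen, numbered 200 higher, 36 lower and 661 not called of 897, beside the 19.4% higher and 1.66% lower over all genes. Their 12 largest rises included twi1, a wound-inducible glucosyltransferase, with a mean of 8.54 ± 0.03 over the red ripe arrays (SD, n = 3) and of 3.34 ± 0.64 over the pink ones (SD, n = 2). They also included GA2ox2, a gibberellin-inactivating oxidase, at 8.10 ± 0.16 and 3.34 ± 0.59, and hdc, a histidine decarboxylase, at 7.43 ± 0.21 and 2.82 ± 0.57. The red ripe arrays of these genes lay close together, while the pink arrays spread more. The stress-responsive kinase MPK3 rose by 4.65 ± 0.20 on the log2 scale (adjusted p = 5.3e-06) and Eix1, a cell-surface receptor of the fungal elicitor xylanase, by 4.65 ± 0.26 (adjusted p = 1.52e-05). The zinc finger gene CZFP1 rose by 4.97 ± 0.20 (adjusted p = 4.01e-06).

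**Figure D3:**
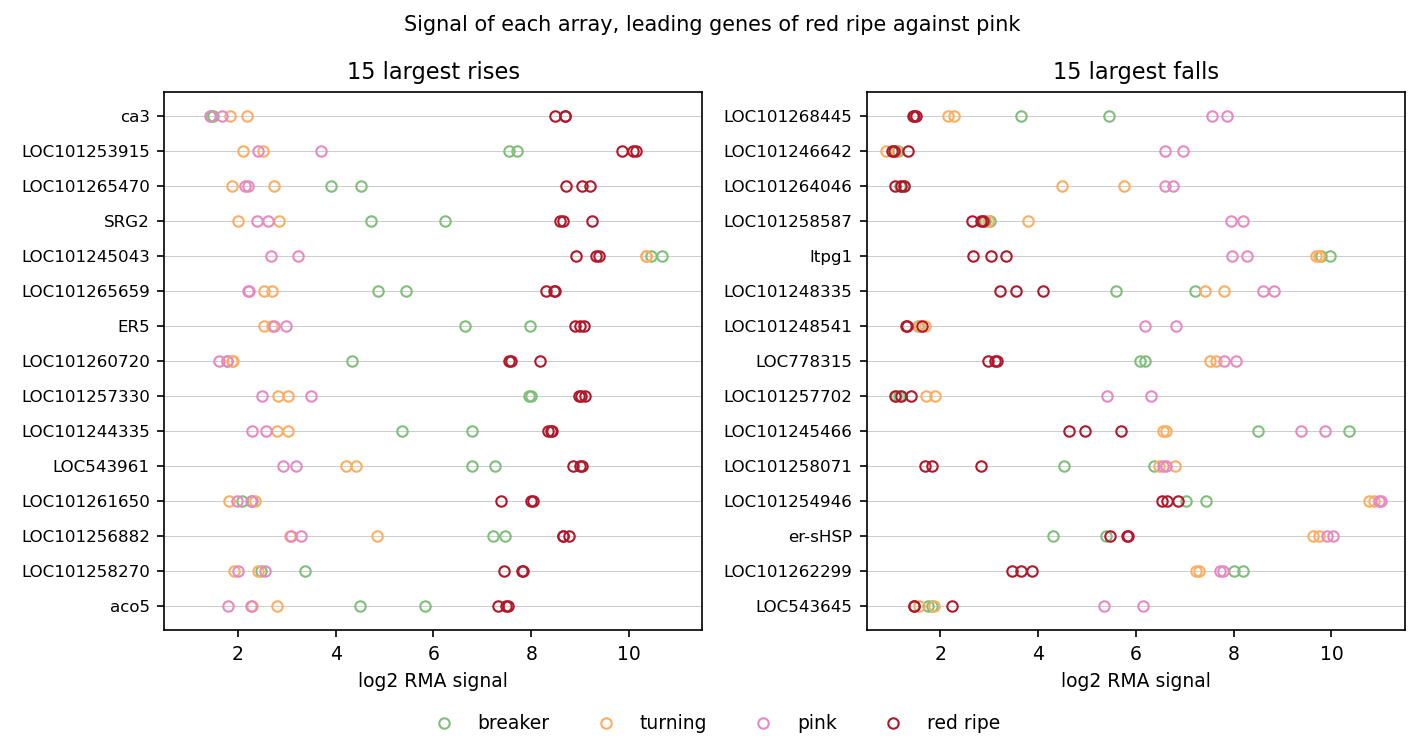
Log2 RMA signal (horizontal axis) of every array, coloured by stage, for the 15 largest rises (left) and the 15 largest falls (right) of red ripe against pink, 1 gene per row. The red ripe and pink points are apart in each row, since only called genes with such a separation could be chosen. LOC101245043 was dim on both pink arrays and bright on the other 7, and LOC101246642, LOC101248541, LOC101257702 and LOC543645 were at 5.35 to 6.96 at pink and under 2.5 at the other stages.

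Of 11 genes of ethylene synthesis 3 were higher (27.3%, against 19.4% of all genes) and none lower, and 5 were under 2.5 at both stages. The median log2 difference was 0.08 against 0.11 over all genes. The ACC oxidase aco5, which carries out the final step to ethylene, had log2 signals of 7.52, 7.49 and 7.32 at red ripe and 2.27 and 1.81 at pink, a log2 difference of 5.40 ± 0.35 (adjusted p = 2.76e-05). SAM3, a synthase of the precursor S-adenosylmethionine, had 7.83, 7.75 and 7.49 against 4.92 and 4.83, a log2 difference of 2.82 ± 0.26 (adjusted p = 0.000167). In both genes the arrays of the stages were far apart. ACO4 was called (2.85 and 1.41, adjusted p = 0.0365), but lost the call when either pink array or the red ripe array of replicate 1 or 2 was left out (adjusted p = 0.0553 to 0.139), with array weights and with only the 5 arrays (0.0941 and 0.0539). Over the mean of its 2 probe sets its log2 difference was 0.49 in place of 1.44 (adjusted p = 0.239). The ripening-related ACC synthase ACS2 had 6.23, 5.80 and 6.05 at red ripe and 5.10 and 5.65 at pink, a log2 difference of 0.65 ± 0.24 that did not pass (adjusted p = 0.117).

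In ethylene signalling 9 of 18 genes were higher (50%, against 19.4% of all genes) and none lower, with a median log2 difference of 0.97. Only 1 of the 18 was under 2.5 at both stages, so part of the gap to all genes may lie in signal level. EIN2, the membrane protein that passes the signal on, stood at 6.70, 6.65 and 6.57 at red ripe and 4.32 and 4.03 at pink, a log2 difference of 2.47 ± 0.17 (adjusted p = 3.63e-05). EIL3, a transcription factor downstream of EIN2, stood at 7.23, 7.28 and 7.26 against 3.75 and 4.04, a log2 difference of 3.36 ± 0.15 (adjusted p = 6.41e-06). EIL4 rose by 2.23 ± 0.33 (adjusted p = 0.0018), EIL1 by 1.80 ± 0.34 (adjusted p = 0.00691), and EIL2 was near background at both stages. Receptors, which repress the pathway in the absence of the hormone, did not move together. ETR4 rose by 1.74 ± 0.17 (adjusted p = 0.00018), ETR1 had a log2 difference of 0.05, and ETR5 and ETR2 had differences of -0.88 (adjusted p = 0.0486) and -0.73 (adjusted p = 0.0155), under the fold limit. ER24, a transcriptional coactivator of the MBF1 type, was at 7.91 and 7.69 (adjusted p = 0.411). By real-time PCR the paper reported another course, a rise of ER24 up to pink that was lost at red ripe. After quantile or cyclic loess normalization 6 genes of the list were higher and 2 lower. Over all genes 2119 and 2253 were then higher and 838 and 798 lower, in place of 4131 and 353.

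Of 10 transcription factors of ripening 3 were higher (30%, against 19.4% of all genes) and none lower, and 3 were under 2.5 at both stages. RIN was not among the matched genes. The median log2 difference was 0.61. The MADS-box factor TDR4, also known as FUL1, stood at 9.56, 9.54 and 9.68 at red ripe and 8.28 and 8.60 at pink, a log2 difference of 1.15 ± 0.18 (adjusted p = 0.00281). TM29, a MADS-box gene of the SEPALLATA class, stood at 6.88, 7.22 and 7.11 against 5.84 and 5.87, a difference of 1.22 ± 0.16 (adjusted p = 0.000896). NAC1 had a difference of 1.53 ± 0.38 (adjusted p = 0.0261). NAC-NOR had 10.56, 10.43 and 10.41 against 10.73 and 10.82, a difference of -0.31 ± 0.13 that did not pass (adjusted p = 0.182). Only 1 of the 3 was called after quantile normalization and 0 after cyclic loess normalization. Over all genes the higher calls fell as well, from 4131 to 2119 and 2253. Without the pink array of replicate 1 only 1 was called, TDR4 having a difference of 0.99 and NAC1 an adjusted p of 0.116.

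Factors of the AP2/ERF family, which includes the ethylene response factors, were higher in 6 of 11 genes (54.5%, against 19.4% of all genes). None was lower, 2 were under 2.5 at both stages, and the median log2 difference was 1.48. CBF1, known from cold responses, stood at 5.05, 6.56 and 5.59 at red ripe and 1.91 and 2.27 at pink, a log2 difference of 3.64 ± 0.37 (adjusted p = 0.000258), the spread among red ripe arrays being large. ERF5 (also SlERF.B2) stood at 6.35, 5.82 and 5.92 against 3.40 and 3.34 (2.66 ± 0.33, adjusted p = 0.000746). ERF2 (SlERF.E1) was bright at both stages, with 8.97, 9.09 and 9.10 against 7.55 and 7.44 (1.56 ± 0.17, adjusted p = 0.000403). In none of the 3 did the stages overlap.

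WRKY factors, regulators best known from defence and senescence, were higher in 4 of 8 genes (50%, against 19.4% of all genes) and lower in none. The other 4 were under 2.5 at both stages. WRKY3 stood at 5.59, 6.21 and 5.71 at red ripe and 2.04 and 1.86 at pink, a log2 difference of 3.89 ± 0.23 (adjusted p = 1.88e-05). LOC101263542 (SlWRKY23) stood at 6.58, 6.27 and 5.97 against 2.71 and 3.00, a difference of 3.42 ± 0.20 (adjusted p = 2.02e-05). WRKY3 was low at the 3 earlier stages, whereas LOC101263542 was at 6.87 at breaker. WRKYIId-2 and WRKYIId-4 rose by 2.23 ± 0.27 and 2.35 ± 0.29 (adjusted p = 0.000637 and 0.000714).

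Calcium sensors and pumps were called higher in 12 of 18 genes (66.7%, against 19.4% of all genes) and lower in none. Their median log2 difference was 1.50, and 3 of the 18 were under 2.5 at both stages. CIPK11, a protein kinase that calcineurin B-like calcium sensors activate, stood at 6.06, 6.50 and 5.72 at red ripe and 2.45 and 2.66 at pink, a log2 difference of 3.54 ± 0.24 (adjusted p = 3.26e-05). The calcium-dependent protein kinase CDPK2 stood at 6.20, 6.05 and 6.18 against 4.24 and 4.15, a difference of 1.95 ± 0.15 (adjusted p = 6.87e-05). The calmodulin-like LOC101256817 stood at 6.28, 6.45 and 6.04 against 3.71 and 4.24, a difference of 2.28 ± 0.23 (adjusted p = 0.000234). The red ripe arrays of all 3 lay above both pink arrays. LOC101256054 rose by 1.86 ± 0.19 (adjusted p = 0.000298), and the calcium pump ACA10 by 1.78 ± 0.31 (adjusted p = 0.00489). Of the sensors CBL1, CBL2 and CBL10 none was called, with log2 differences of 0.08, 0.82 and 0.52. After quantile normalization 6 of the list were called, and after cyclic loess normalization 7. Over all genes the higher calls fell as well, from 4131 to 2119 and 2253. The list includes 6 genes that the study had selected from these arrays, among them LOC101256817 and LOC101256054. Of the 6, 5 were called, so that the list is not independent evidence of a direction. For the selected calcium genes the paper reported the opposite last step by real-time PCR, a fall from pink to red ripe. The cause of this disagreement with the array rises was not tested.

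Of 46 genes of cell wall loosening 10 were higher and 1 lower (21.7% and 2.17%), near the shares over all genes, and 23 were under 2.5 at both stages. The median log2 difference was 0.07. EXLA1, an expansin-like protein, stood at 7.70, 7.84 and 7.88 at red ripe and 2.75 and 2.94 at pink, a log2 difference of 4.96 ± 0.22 (adjusted p = 5.54e-06). EXP1, the ripening expansin, stood at 4.97, 5.05 and 4.89 against 1.57 and 1.12, a difference of 3.62 ± 0.25 (adjusted p = 3.67e-05), and it was at 4.71 at breaker and 1.58 at turning. The beta-galactosidase TBG3, which trims galactan side chains, stood at 5.98, 5.95 and 5.46 against 2.91 and 2.12, a difference of 3.28 ± 0.27 (adjusted p = 8e-05). The stages were apart in each of these genes. TBG1, TBG2 and TBG7 also rose, by 1.74 to 2.37, and TBG5 and TBG6 had differences of -0.05 and 0.50. XYL2 rose by 2.35 ± 0.15 (adjusted p = 2.73e-05).

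The main softening enzymes were close to the top of the scale at both stages. PG2, which breaks down pectin, stood at 11.25, 11.29 and 11.44 at red ripe and 10.81 and 10.72 at pink, a log2 difference of 0.56 ± 0.15 (adjusted p = 0.0395) that was under the fold limit. The endoglucanase Cel2 stood at 10.79, 10.30 and 10.70 against 10.21 and 10.22 (0.38 ± 0.17, adjusted p = 0.204). PME2.1, a pectin methylesterase, was the only gene of the list that fell. It stood at 6.97, 6.89 and 6.62 at red ripe and 8.15 and 8.54 at pink, a log2 difference of -1.52 ± 0.20 (adjusted p = 0.000902). Outside the list, and chosen for its large rise, the xyloglucan endotransglycosylase tXET-B1, which cuts and rejoins hemicellulose, stood at 7.34 ± 0.25 at red ripe and 2.23 ± 0.40 at pink.

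Genes of sugar metabolism were higher in 9 of 23 (39.1%, against 19.4% of all genes) and lower in none. Their median log2 difference was 0.43, and 9 of the 23 were under 2.5 at both stages. Beside the sucrose synthase LOC543961, the cell wall invertase lin5, which splits sucrose as it is unloaded into the fruit, stood at 5.76, 5.12 and 5.33 at red ripe and 1.47 and 1.23 at pink, a log2 difference of 4.05 ± 0.35 (adjusted p = 0.00011). AGP-S2, a subunit of the starch-forming ADP-glucose pyrophosphorylase, rose by 1.40 ± 0.14 (adjusted p = 0.0002) and the fructokinase FRK2 by 1.71 ± 0.21 (adjusted p = 0.00078). Their pink means were 5.56 and 3.92. The sucrose transporters SUT1 and SUT2 rose by 1.83 and 1.01, and SUT4 had a difference of -0.46 (adjusted p = 0.0689). After quantile normalization 3 genes were higher, FRK2 and AGP-S2 having log2 differences of 0.84 and 0.78. After cyclic loess normalization 4 were higher and 1 lower. Over all genes the higher calls fell as well, from 4131 to 2119 and 2253.

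Carotenoid genes were called higher in 3 of 16 (18.8%, near the 19.4% of all genes) and lower in none, and 5 were under 2.5 at both stages. The median log2 difference was 0.37. The plastid enzyme dxs, which feeds isoprenoid precursors into the pathway, stood at 9.54, 9.49 and 9.39 at red ripe and 7.08 and 7.29 at pink, a log2 difference of 2.29 ± 0.14 (adjusted p = 1.95e-05). CrtR-b2, a beta-carotene hydroxylase, stood at 5.33, 5.17 and 5.21 against 2.83 and 3.11, a difference of 2.27 ± 0.16 (adjusted p = 3.65e-05). Psy1, the first committed enzyme of the pathway in fruit, stood at 10.06, 10.15 and 10.26 against 9.30 and 9.23, a difference of 0.89 ± 0.18 (adjusted p = 0.0105) that was under the fold limit. The 3 genes had no overlap between the stages, Psy1 among them without a call. Such a separation was also seen at very small differences, as in rps2 (0.08), and its share over all genes was not counted. The desaturases pds and zds, which act on the way to lycopene, were bright and had differences of 0.24 and 0.51 (adjusted p = 0.306 and 0.0902). FPS1, which makes farnesyl diphosphate and so leads to sterols rather than to carotenoids, rose by 2.22 ± 0.21 (adjusted p = 0.000191).

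**Figure D4:**
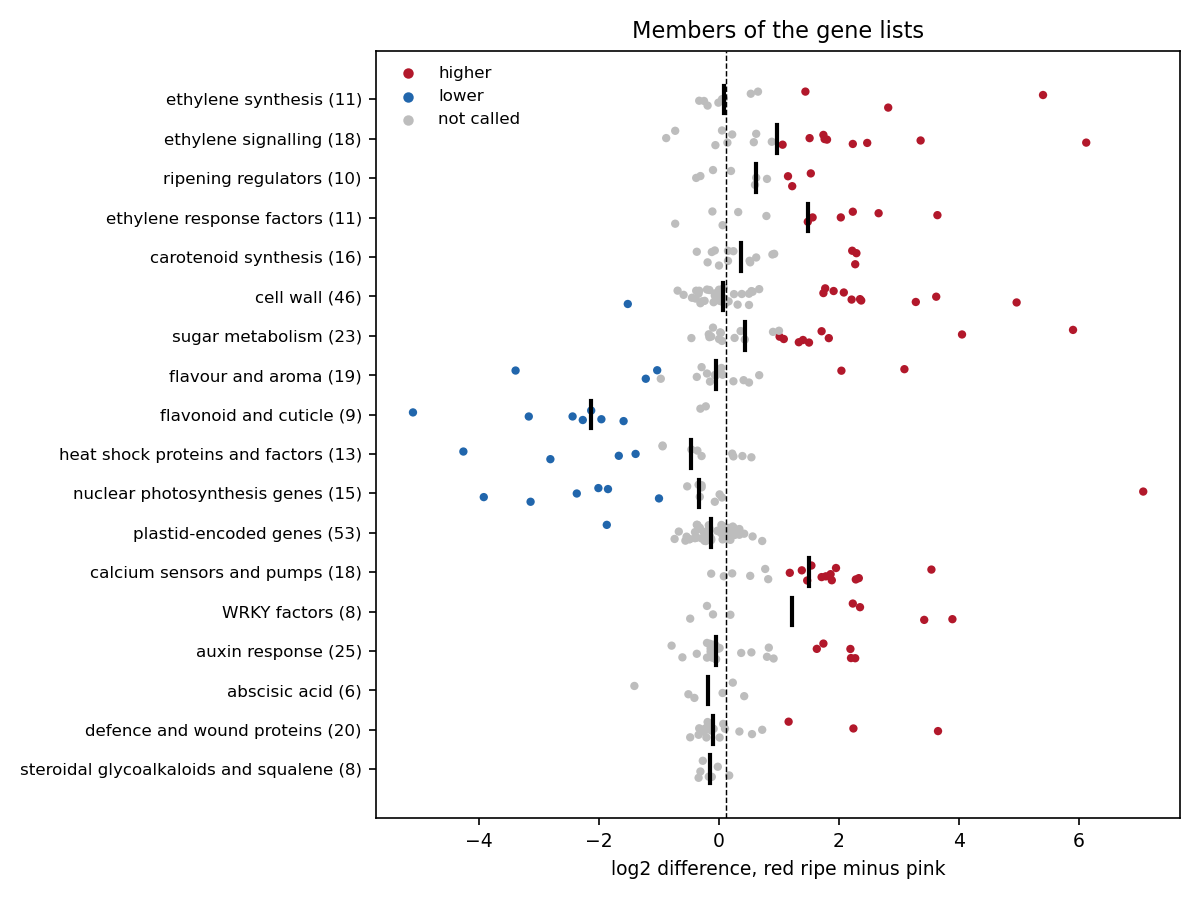
Log2 difference of red ripe minus pink (horizontal axis) for each member of the 18 gene lists (rows, number of genes in brackets), red if higher, blue if lower and grey if not called. Black bars mark the list medians and the dashed line the median of all genes, 0.11. Points of calcium sensors lie to the right, with a median of 1.50, and those of flavonoid and cuticle genes to the left, with a median of -2.13. The calcium list includes genes that the study had selected from these arrays, so it is not independent evidence of a direction.

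Other lists held few calls. Auxin response genes were higher in 5 of 25 and lower in none, near the share over all genes. They were the response factors ARF3, ARF4 and ARF5 and the repressors IAA3 and IAA6, with log2 differences of 2.27, 1.74, 1.63, 2.20 and 2.19. Defence and wound proteins were higher in 3 of 20 (15%, against 19.4% of all genes), and 15 of the 20 were under 2.5 at both stages. The chitinase CHI3 stood at 7.63, 7.79 and 7.63 at red ripe and 3.88 and 4.18 at pink, a log2 difference of 3.65 ± 0.29 (adjusted p = 6.99e-05). CHI9, another chitinase, and LAPA2, a leucine aminopeptidase, rose by 2.24 and 1.16, and LAPA2 lay under the fold limit after quantile and cyclic loess normalization (0.96 and 0.87). None of 6 abscisic acid genes was called. CYP707A1, which breaks the hormone down, had a log2 difference of -1.41 with a standard error of 0.50 (adjusted p = 0.1). None of 8 genes of glycoalkaloids and squalene was called, 6 of them being under 2.5 at both stages.

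The falls were fewer and were led by genes that pink fruit expressed at high level. LOC101268445, without a description at hand, had log2 signals of 1.50, 1.44 and 1.46 at red ripe and 7.55 and 7.86 at pink, a log2 difference of -6.24 ± 0.42 (adjusted p = 3.19e-05). LOC101246642, similar to tropinone reductase, an enzyme family of alkaloid and other ketone reductions, had 1.05, 1.02 and 1.34 against 6.59 and 6.96, a difference of -5.64 ± 0.17 (adjusted p = 1.54e-06). LOC101264046, similar to cinnamoyl-CoA reductase, which acts in lignin synthesis, had 1.27, 1.08 and 1.20 against 6.59 and 6.77, a difference of -5.50 ± 0.31 (adjusted p = 1.43e-05). At red ripe all 3 were at the bottom of the scale, so that these folds too are at best lower bounds. LOC101246642 was at the bottom of the scale at breaker and turning too, while LOC101264046 was at 1.21 at breaker and 5.12 at turning. LOC101254946 fell from a level close to the top of the scale, standing at 6.68 ± 0.17 (SD, n = 3) at red ripe against 11.00 ± 0.02 (SD, n = 2) at pink.

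Flavonoid and cuticle genes were lower in 7 of 9 (77.8%, against 1.66% of all genes) and higher in none, with a median log2 difference of -2.13. The lipid transfer protein ltpg1, of a family that exports lipids to the plant surface, stood at 3.35, 3.03 and 2.68 at red ripe and 7.96 and 8.28 at pink, a log2 difference of -5.10 ± 0.20 (adjusted p = 4.01e-06). MYB12, the regulator that switches on the flavonoid pathway in the fruit skin, stood at 2.06, 1.51 and 2.30 against 5.01 and 5.25, a difference of -3.17 ± 0.23 (adjusted p = 4.51e-05). Chalcone synthase CHS2, the entry enzyme of that pathway, stood at 5.80, 5.57 and 5.43 against 7.84 and 7.91, a difference of -2.27 ± 0.14 (adjusted p = 2.44e-05). In each of them all red ripe arrays lay well below the lower pink array. Flavanone 3-hydroxylase F3H, the next step but one, stood at 5.13, 4.72 and 4.85 against 7.30 and 7.38 (-2.44 ± 0.20, adjusted p = 8.51e-05). CHS1 stood at 2.24, 1.88 and 1.72 against 3.96 and 4.20 (-2.13 ± 0.31, adjusted p = 0.00169). CD2, a homeodomain factor needed for cutin, fell by 1.59 (adjusted p = 8.88e-05), and the lipid transfer protein LE16 by 1.96 (adjusted p = 0.00593). The 2 genes not called, TSW12 and LOC101266080, were under 2.5 at both stages. The count was 7 under every normalization tried. CHS1 and CHS2, and the lipid transfer proteins, are close relatives whose probes may share signal.

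Heat shock proteins and factors fell in 4 of 13 genes (30.8%, against 1.66% of all genes) and rose in none. Their median log2 difference was -0.46. The small heat shock protein of the endoplasmic reticulum, er-sHSP, stood at 5.85, 5.82 and 5.47 at red ripe and 9.92 and 10.03 at pink, a log2 difference of -4.26 ± 0.28 (adjusted p = 3.13e-05). HSP21, the plastid member, stood at 7.30, 7.39 and 7.16 against 10.23 and 9.96, a difference of -2.81 ± 0.14 (adjusted p = 9.28e-06). The heat shock factor HSFA3 stood at 5.13, 5.29 and 5.03 against 6.87 and 6.78, a difference of -1.67 ± 0.17 (adjusted p = 0.000259). Their levels were also high at turning (9.68, 9.12 and 6.98) and low at breaker (4.86, 6.38 and 4.50). The small heat shock protein vis1, which was described as affecting the viscosity of tomato juice, fell by 1.39 ± 0.14 (adjusted p = 0.000221). HSP70 stood at 9.18, 9.17 and 8.96 against 10.14 and 9.94, a difference of -0.94 (adjusted p = 0.00166) under the fold limit, and Hsp90-1 and HSC80 had differences of -0.46 and 0.54. MTSHP, the mitochondrial small heat shock protein, was not matched to the list. It stood at 7.67 ± 0.14 at red ripe and 9.94 ± 0.00 at pink.

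Nuclear genes of photosynthesis and photorespiration fell in 6 of 15 (40%, against 1.66% of all genes) and rose in 1, ca3 (6.67%, against 19.4%). Their median log2 difference was -0.34. LOC101267774 (CAB3), a chlorophyll-binding protein of the light-harvesting antenna, stood at 1.78, 1.56 and 1.79 at red ripe and 5.36 and 5.91 at pink, a log2 difference of -3.92 ± 0.20 (adjusted p = 1.1e-05). The photosystem I subunit psaD stood at 7.17, 7.05 and 7.27 against 9.13 and 9.22, a difference of -2.01 ± 0.17 (adjusted p = 0.000101). PsbQ, of the oxygen-evolving complex, stood at 1.89, 2.13 and 1.71 against 4.57 and 5.54, a difference of -3.14 ± 0.31 (adjusted p = 0.000216). Pink and red ripe did not overlap in any of these. POR2, which makes chlorophyll precursors, fell by 1.85 ± 0.20 (adjusted p = 0.000391), the glycolate oxidase GLO2 by 2.37 ± 0.28 (adjusted p = 0.000515), and PSBP by 1.00 ± 0.14 (adjusted p = 0.00119), at the fold limit. PSBO and PSBR had differences of 0.01 and -0.53. CAB4 and the RBCS genes were under 2.5 at both stages. Of 5 leaf marker genes LOC101267774 was the one called, and the mean log2 signal of the 5 was 1.66 at red ripe and 2.65 at pink. The part of leaf-like tissue in these falls was not tested.

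Genes that the plastid genome encodes had a mean log2 signal of 10.10 at red ripe and 10.20 at pink, close to the top of the scale, where a change may be understated. Of 53 such genes 1 was lower (1.89%, near the 1.66% of all genes) and none higher, with a median log2 difference of -0.13. The exception was rps14, a ribosomal protein, at 7.86, 7.70 and 7.79 against 9.52 and 9.78 (-1.87 ± 0.16, adjusted p = 0.0001). The remaining 52 had differences from -0.74 for rpl20 to 0.72 for atpF. The list rests on symbols alone, and the genome that encodes each member was not checked. The dimmest member, infA, stood at 6.64 at red ripe and 7.13 at pink. Some of these symbols are shared with mitochondrial genes, and 4 genes fell into 2 pairs of identical values.

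**Figure D5:**
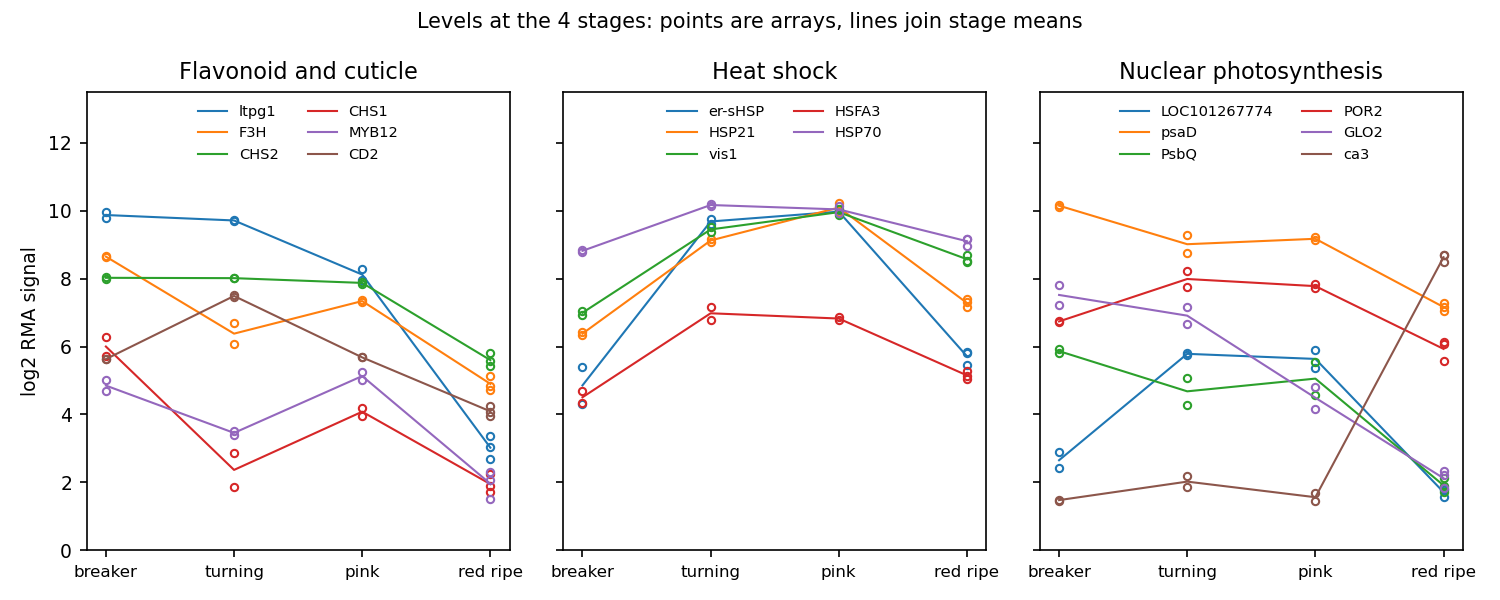
Log2 RMA signal (vertical axis) at the 4 stages (horizontal axis) for genes of flavonoids and cuticle, heat shock and nuclear photosynthesis. Points are arrays and lines join stage means. The genes shown were chosen from lists whose levels fell, so the falls seen here largely follow from the choice. Left out were, among others, HSC80, Hsp90-1 and PSBO, with log2 differences of 0.54, -0.46 and 0.01. Each gene shown except ca3 is lower at red ripe than at pink, and the 5 heat shock genes are higher at turning and pink than at breaker, er-sHSP going from 4.86 at breaker to 9.97 at pink and 5.71 at red ripe.

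Genes of flavour and aroma moved both ways, with 3 of 19 lower (15.8%, against 1.66% of all genes) and 2 higher (10.5%, against 19.4%). Their median log2 difference was -0.05. The lipoxygenase LOX1.1, also known as loxA, stood at 5.71, 5.33 and 5.74 at red ripe and 9.01 and 8.96 at pink, a log2 difference of -3.39 ± 0.18 (adjusted p = 1.1e-05). The glutamate decarboxylase LOC544313 (GAD1), which makes gamma-aminobutyric acid, stood at 8.66, 8.51 and 8.58 against 9.79 and 9.81, a difference of -1.22 ± 0.12 (adjusted p = 0.000213). The hydroperoxide lyase HPL fell by 1.03 ± 0.14 (adjusted p = 0.0013), at the fold limit, and was not called after median centring (-0.90). The lipoxygenase loxC, which serves the short-chain volatiles of ripe fruit, stood at 8.31, 8.16 and 8.45 against 9.37 and 9.19, and its difference of -0.97 ± 0.14 (adjusted p = 0.00181) lay just inside a 2-fold change. All red ripe arrays of these genes, loxC without a call among them, were below both pink arrays. Such a separation was also seen at very small differences, as in EIL2 (-0.06), and its share over all genes was not counted. The wound-related loxD, of the jasmonate pathway, instead stood at 5.69, 5.88 and 5.54 against 3.03 and 2.19, a difference of 3.09 ± 0.34 (adjusted p = 0.000383). AADC1A, an aromatic amino acid decarboxylase, was called higher (2.04 ± 0.46, adjusted p = 0.0174), but not without the red ripe array of replicate 1 or 2 or either pink array (adjusted p = 0.0544 to 0.0993). ADH2 and the lipoxygenase LOXB stood at 11.34 and 10.93 at red ripe and were not called.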

How the data were processed

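The deposited values are log2 signals per probe set, which the authors obtained by RMA (background correction, normalization between arrays and summary of probes) in Affymetrix Expression Console. Transcriptome Analysis Console 2.0 is named in the submitters' notes as well. The values were used as deposited. Detection calls and raw intensities were not used here, and the number of arrays limits the precision. The labels name the PureLink kit and the methods the RNeasy kit.

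With limma 3.58.1 (statmod 1.5.0, R 4.3.3), a model of 4 stage means on the 9 arrays gave the contrast of red ripe with pink, on 5 residual and 3.65 prior degrees of freedom. Benjamini-Hochberg adjustment covered the 67795 probe sets, and calls needed an adjusted p under 0.05 together with a fold over 2. Each gene with 1 symbol in the platform annotation was read by the probe set of highest mean signal. Of the 67795 probe sets, 44431 carried no symbol and 170 several. Of 914 genes with several probe sets, 4 had probe sets called in both directions. The fit was tested on simulated data.

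Named are the 15 largest rises and falls among called genes, up to 4 called members per list and direction with the smallest adjusted p, and ripening genes whatever their call; other list members, and the 12 largest rises and falls with a gene name, were added after their values were seen. Lists were matched by symbol and by RefSeq synonyms (assembly SLM_r2.1), so that they cover only matched members; descriptions of LOC genes come from the study's supplement. Members and lists were chosen with earlier results of these data known. Lists by words of a description were not formed. Of the ripening genes planned by name, RIN, E8, ACS4, TBG4 and the study's WRKY22-like factor are not given. Alternatives were the replicate block, each array left out, median centring, quantile and cyclic loess normalization, leaving out 33.3% of probe sets for low mean signal, robust moderation with an intensity trend, array weights, only the 5 arrays, no fold threshold, unadjusted p, the test of the methods on each probe set's own 5 arrays, and the mean of all probe sets of a gene.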

Additional observations from a re-analysis of the deposited data

How the results depend on the processing

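The counts of 4131 higher and 353 lower genes moved to 2119 and 838 after quantile and 2253 and 798 after cyclic loess normalization; 2086 and 2179 of these higher genes were among the 4131. Without a fold threshold 5764 were higher and 718 lower. The test of the methods gave 4047 and 347 at its unadjusted threshold, and 1554 and 152 after Benjamini-Hochberg adjustment. Leaving out each array in turn gave 3596 to 4289 higher and 314 to 431 lower genes. No gene called in the main comparison was called in the opposite direction under any alternative. Replicate numbers were not used to pair the arrays in the main fit. Deviations of same-numbered pink and red ripe arrays correlated with r = 0.03 and 0.05. These 2 values are not independent, since the 2 pink arrays deviate from their mean by opposite amounts. They cannot show whether arrays shared a plant. With the replicate block 4346 genes were higher and 319 lower. Of 2287 values of named genes under alternatives, 60 lost and 10 gained a call. The test of the methods with adjustment accounted for 25 of those lost, among them HPL, LAPA2, CHS1, PsbQ, GLO2, TBG3, CBF1 and FPS1. ACO4 and AADC1A lost theirs when 1 of several arrays was left out, and NAC1 when any 1 of the 5 compared arrays was. TDR4 lost its call without 1 pink array. HPL (log2 difference -1.03) lost its call without the pink array of replicate 2 (-0.95) and without the red ripe array of replicate 3 (-0.97). It did so with the block (-0.97) and after median centring (-0.90) as well. ACO4 (1.44) also lost its call with array weights (1.57, adjusted p = 0.0941), with only the 5 arrays (adjusted p = 0.0539), with the test of the methods and over the mean of its probe sets (0.49, adjusted p = 0.239). NAC1 had an adjusted p of 0.0813 with the block. TM29 had 0.64 after quantile normalization, and LAPA2 (1.16) had 0.96 and 0.87 after quantile and cyclic loess normalization. loxC had -1.09 and was called, and so was Psy1 after median centring (1.03), which moved the median of all probe sets from -0.10 to 0.04. The pooled spread is uneven: limma's array weights were 0.57 for pink and 0.90 to 2.11 for red ripe, so standard errors may be too small for pink. For signals near background, 48% of genes with a mean under 2.5, no fold is measured.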

Other observations

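Some gene groups beyond those described were noticed in the called genes and then counted by symbol, so that they carry no test as groups. Over all genes 19.4% were higher and 1.66% lower, with a median log2 difference of 0.11. Of 15 MAP kinases and their upstream kinases, the phosphorylation cascade that relays stress and hormone signals, 10 were higher at red ripe than at pink and none lower, with a median log2 difference of 1.45. MPK3 stood at 6.32, 6.61 and 6.18 at red ripe and 1.98 and 1.46 at pink, MAPK8 at means of 6.66 and 3.34 and the kinase kinase MKK2 at 8.26 and 6.57. MAPK6, MAPK12 and MPK9 had differences of -0.24, -0.07 and 0.14. Of 11 genes of gibberellin synthesis, breakdown and signalling 4 were higher: GA2ox2, the oxidase 20ox-3, the DELLA repressor GAI and the receptor GID1, with log2 differences of 4.76, 1.76, 1.88 and 1.05. The other 7 were under 2.5 at both stages. Among 11 redox enzymes 5 were higher and 2 lower. GSH1, the first enzyme of glutathione synthesis, stood at 9.80, 9.85 and 9.85 at red ripe and 7.60 and 7.66 at pink (2.20 ± 0.15, adjusted p = 3.11e-05). The catalase cat1 and the iron superoxide dismutase FESOD both fell by 1.29.

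A few genes were bright at 1 stage alone, by limits of 5 and 2.5 on the stage means that were set after the values had been seen. The 30 genes over 5 at red ripe and under 2.5 at the other 3 stages included ca3, LOC101261650, the histidine decarboxylase LOC101248320 (6.89 and 1.85 at pink), tXET-B2 (6.05 and 1.56), ER1 (5.97 and 1.81), Glb1 (5.44 and 1.70), WRKY3 and CBF1. The 4 genes over 5 at pink alone were LOC101246642, LOC101248541, LOC101257702 and LOC543645, with pink means of 6.78, 6.51, 5.86 and 5.74. In the opposite pattern, LOC101245043 and LOC101252891 were under 3 at pink and over 5 at the other 3 stages. LOC101252891 stood at 6.23, 6.36 and 6.18 at red ripe, 2.42 and 3.27 at pink, and at means of 5.45 at breaker and 6.55 at turning.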
